A study of Mus musculus with 32 samples.

Results

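Interferon transcription factors and nucleic acid sensors, 9 genes in all, were followed through the response of mouse mesentery to pristane. They comprise 5 transcription factors (Irf7, Irf9, Stat2, Irf1 and Irf8) and 4 nucleic acid sensors (Ddx58, Ifih1, Dhx58 and Zbp1). Each gene was represented by its brightest probe set that carries a single gene symbol, which made 9 of 18193 genes on the array. All 9 were among the 13016 genes bright enough to be tested (signal above 103.7 on at least 3 arrays). Total RNA of the mesentery, the membrane that carries the vessels and fat of the gut, was hybridised to 32 Affymetrix mouse expression arrays. The treated mice had received 0.5 ml of pristane, a branched hydrocarbon oil, in the peritoneal cavity. BALB/c, BALB/DBA F1 hybrid and DBA mice were sampled at day 3 (3 arrays each), and BALB/c and DBA mice at day 18 (4 and 3 arrays). Untreated mice of each strain, prepared at the same time according to the treatment protocol in the labels, were the controls. Which controls go with which day was read from the runs of codes in the titles. There were 3 arrays each for BALB/c, F1 and DBA with codes of the day 3 run, 4 for BALB/c and 3 for DBA with codes of the day 18 runs. No group carries a transgene or a deleted allele according to the labels. The DBA substrain, sex and age are not in the labels, nor is it stated that each array holds RNA of another animal. The codes of all BALB/c arrays of the day 18 run contain the word mix and 1 DBA control has a double code, and the labels do not say whether RNA was pooled there. The p-values therefore refer to the spread between arrays, part or all of which may be technical. A response below is the log2 difference between pristane arrays and the controls of the same strain and code run. All signals are the authors' MAS5 values, logged after adding an offset of 24.9, which makes the folds of dim genes appear smaller than they are. Genes were tested with limma over all 13016 genes, and a change was called at a two-sided Benjamini-Hochberg adjusted p under 0.05.

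Type I interferons signal through their receptor to a complex that holds STAT2 and IRF9 and binds interferon-stimulated response elements (ISRE) in the promoters of its targets. IRF7 drives transcription of the interferon-alpha genes once a nucleic acid sensor has fired, and its own gene is a target of that complex, which makes it part of a feed-forward loop. Cytoplasmic RNA is sensed by RIG-I (Ddx58) and MDA5 (Ifih1), both of which signal through MAVS, while LGP2 (Dhx58) modulates them and ZBP1 recognises left-handed nucleic acids. Injected pristane is known to set up a chronic inflammation of the peritoneum with an interferon signature. BALB/c mice are known to be susceptible to pristane-induced plasma cell tumours, and DBA mice to be resistant.

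Promoters were read for 2 motifs, the core of the ISRE, GAAANNGAA, and the gamma-activated site (GAS), TTCNNNGAA. RefSeq promoters of GRCm38.p6, covering 250 bases before and 50 bases from each start, were listed for 7 of the 9 genes. The ISRE core, searched on both strands, was in 8.56% of all 32851 promoters, and the GAS, whose letters are the same on both strands, in 8.3%. The ISRE core was found in 3 of the genes (Stat2, Ifih1 and Ddx58) and the GAS in 2 (Irf1 and Irf8). Counted by promoter, as in the shares above, these were 3 and 2 of the 10 promoters listed for the genes. These letters were not in the windows of Irf7 and Irf9, nor at the second listed starts of Irf1, Irf8 and Irf9. The windows with a match are shown because they separate the genes by motif. Each is written along its gene's strand with the match in capitals, and the Stat2 and Ddx58 matches and the upstream Ifih1 match read as the ISRE core on the opposite strand.
Irf1, GAS, chr11:53769764-53770013, plus strand: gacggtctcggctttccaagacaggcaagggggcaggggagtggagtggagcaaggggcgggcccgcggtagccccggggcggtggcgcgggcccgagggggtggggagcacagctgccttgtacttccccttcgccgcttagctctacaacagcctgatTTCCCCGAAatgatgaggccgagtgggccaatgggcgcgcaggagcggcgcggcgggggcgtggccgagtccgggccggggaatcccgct
Irf8, GAS at 2 places, chr8:120736108-120736357, plus strand: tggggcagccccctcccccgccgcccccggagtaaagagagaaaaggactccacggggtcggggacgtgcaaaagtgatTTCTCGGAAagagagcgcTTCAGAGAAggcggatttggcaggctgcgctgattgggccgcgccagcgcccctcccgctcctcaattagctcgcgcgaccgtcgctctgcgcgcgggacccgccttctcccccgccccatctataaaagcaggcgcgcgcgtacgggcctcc
Stat2, ISRE core, chr10:128270248-128270497, plus strand: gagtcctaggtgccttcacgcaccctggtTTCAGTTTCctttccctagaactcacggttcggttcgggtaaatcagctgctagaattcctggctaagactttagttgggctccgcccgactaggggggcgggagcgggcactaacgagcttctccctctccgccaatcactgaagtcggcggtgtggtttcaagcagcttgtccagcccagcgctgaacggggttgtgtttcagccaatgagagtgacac
Ifih1, ISRE core before the start, chr2:62646256-62646505, minus strand: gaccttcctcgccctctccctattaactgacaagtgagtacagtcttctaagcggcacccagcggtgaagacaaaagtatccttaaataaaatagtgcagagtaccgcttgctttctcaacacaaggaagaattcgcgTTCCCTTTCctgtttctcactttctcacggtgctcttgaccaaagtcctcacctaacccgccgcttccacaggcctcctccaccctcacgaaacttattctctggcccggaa
Ifih1, ISRE core after the start, chr2:62646206-62646235, minus strand: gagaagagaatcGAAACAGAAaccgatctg
Ddx58, ISRE core after the start, chr4:40239804-40239833, minus strand: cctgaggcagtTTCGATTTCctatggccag

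In the coordinates of that build, Irf1 lies at chr11:53770014-53778374, Irf7 at chr7:141263183-141266499, Irf8 at chr8:120736358-120756694, Irf9 at chr14:55603985-55610030 and Stat2 at chr10:128270498-128292853. Of the sensors, Ifih1 lies at chr2:62595618-62646255, Zbp1 at chr2:173206612-173218959, Ddx58 at chr4:40203777-40239825 and Dhx58 at chr11:100694884-100704271. The GAS match of Irf1 began 90 bases before its start, and those of Irf8 began 171 and 153 bases before. The ISRE core began 221 bases before the start of Stat2 and 112 bases before that of Ifih1, whose other match lay 33 to 41 bases after it. In Ddx58 the match lay 4 to 12 bases after the start.

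Array medians lay between 90.6 and 135.3. One array stood apart, BALB/c control replicate 2 of the day 18 codes, whose highest correlation with any other array was 0.891, against 0.975 to 0.988 for the other arrays. Pancreatic acinar markers summed to 829000 on that array and to more than 10000 on 6 of the 8 BALB/c arrays with day 18 codes. The X-inactivation transcript Xist had a signal of 12300 to 16800 on the F1 pristane arrays and 55 to 107 on the F1 controls, so sex and treatment cannot be told apart within the F1 comparison. In the other 4 comparisons both groups held equal numbers of Xist-high arrays. Adipocyte markers, known from the fat of the mesentery, summed to between 71900 and 163000 on the control arrays. The ratio of 3' to 5' actin signal, a measure of RNA integrity, had a lower mean on pristane arrays than on controls in all 5 comparisons, for example 1.56 ± 0.17 on F1 pristane arrays and 2.1 ± 0.0412 on F1 controls (SD, n = 3 each). Its part in the results was not tested.

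**Figure D1:**
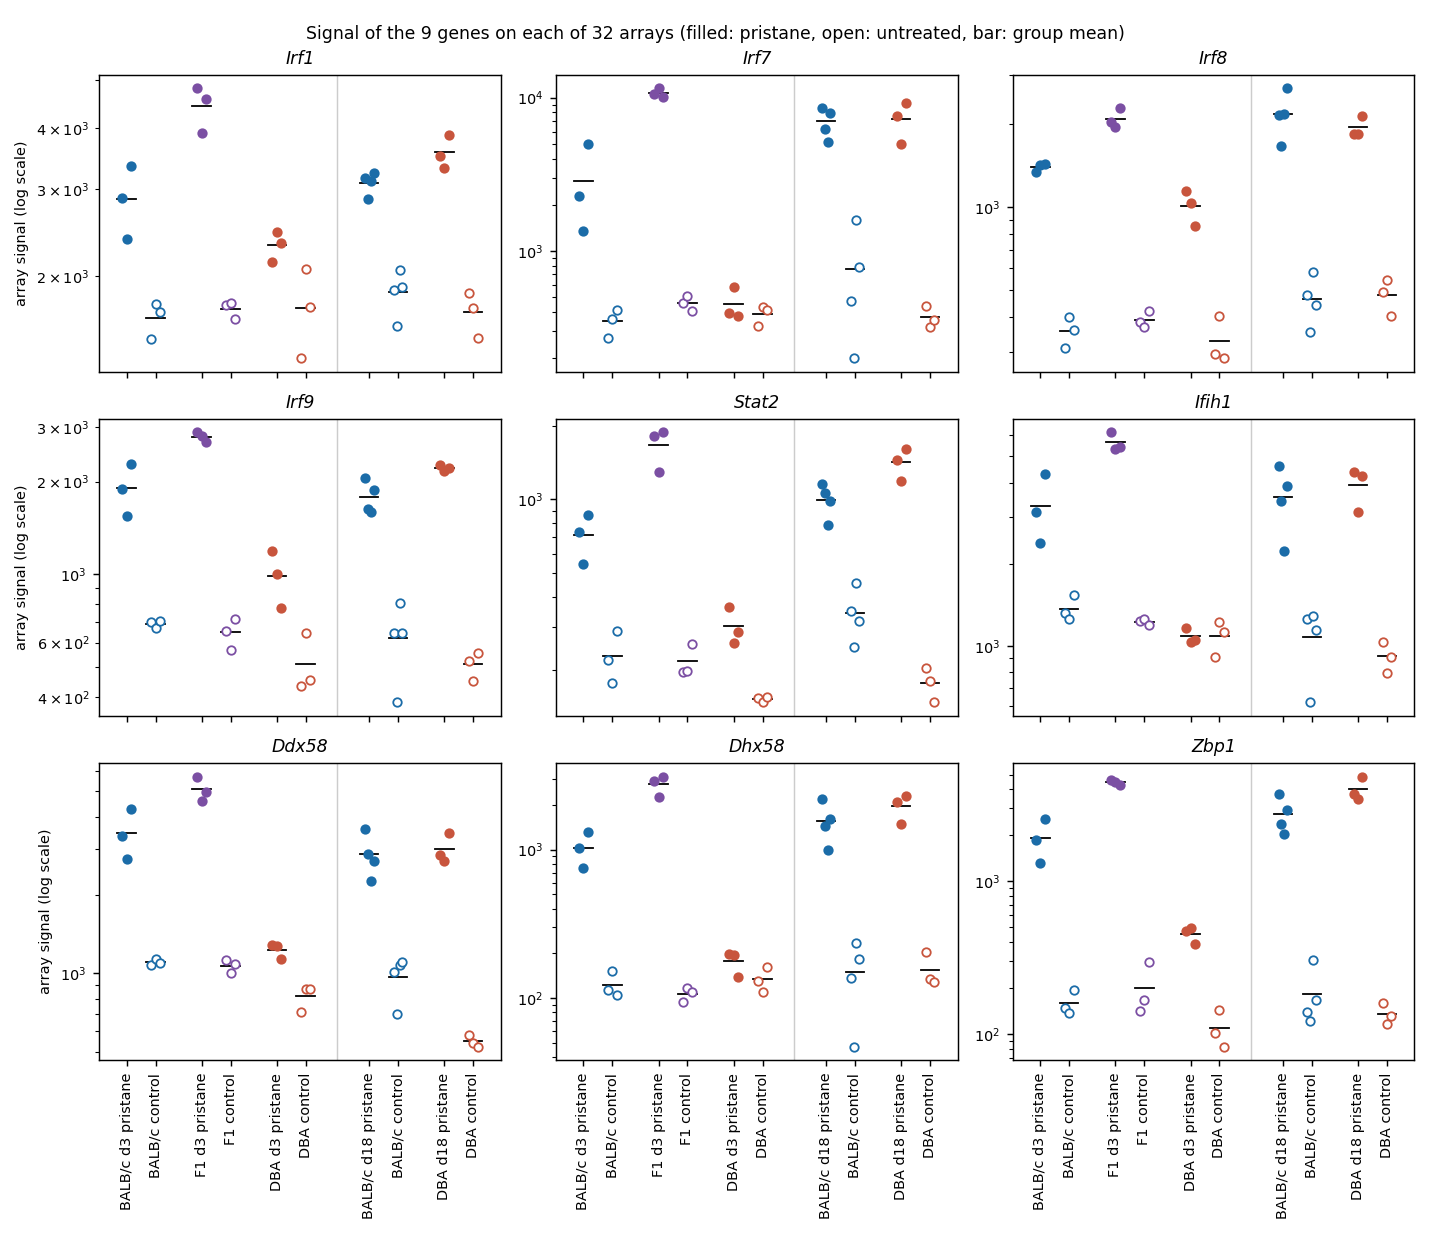
Array signal (log scale, with a scale of its own in each panel) of the 9 genes on each of 32 arrays, with pristane arrays filled, untreated arrays open and a bar at each group mean, day 3 left and day 18 right of the grey line. At day 3 the DBA pristane points of Irf7, Ifih1 and Dhx58 overlap those of the untreated DBA arrays, whereas the BALB/c and F1 pristane points lie above their controls in every panel. The share of all genes that separate in this way was not counted.

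Irf7, the regulator of interferon-alpha genes, was among the genes that moved furthest at day 3 in BALB/c and F1 mice. Its signal was 2261.7, 1353.1 and 5007.5 on BALB/c pristane arrays, against 270.8, 356.1 and 408.1 on their controls. In F1 mice it was 10588.3, 11550.7 and 10054.4 with pristane, against 455.2, 503.9 and 406.2 without. In DBA mice it was 390.4, 581.6 and 376.6 with pristane, against 321.5, 427.5 and 407 without. Pristane and control arrays did not overlap in BALB/c and F1 mice and did overlap in DBA mice. Here and for the other genes at day 3, the share of all genes without overlap was not counted. The log2 change was 2.78 ± 0.441 (SE, here and below from the fit) in BALB/c, a 6.88-fold rise, and 4.49 ± 0.441 in F1, a 22.4-fold rise. In DBA it was 0.19 ± 0.441 (adjusted p = 0.79), with a 95% interval of -0.71 to 1.1, which leaves room for a change of either sign.

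STAT2 and IRF9 act together in the complex that binds the ISRE, and both genes rose in all 3 kinds of mice at day 3. Stat2 had signals of 738.8, 546.1 and 863.1 on BALB/c pristane arrays, against 220.5, 177.3 and 290.2 on controls. On F1 arrays it had 1826.2, 1298.5 and 1885.8 with pristane, against 196.8, 199.1 and 254.7 without. On DBA arrays it had 361.2, 259.1 and 285.8 with pristane, against 153.7, 147.3 and 155 without. Every pristane array was above every control array of its strain. The Stat2 changes were 1.54 (BALB/c), 2.80 (F1) and 0.87 (DBA), each ± 0.203. Irf9 changed by 1.41, 2.07 and 0.92 in the same order of strains (± 0.189), with mean signals of 989.4 ± 206 on DBA pristane arrays and 511 ± 117 on DBA controls (SD, n = 3 each).

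Irf1, induced by interferon-gamma as well as type I interferon, had the smallest day 3 change of the 9 genes in BALB/c and F1 mice, 0.78 and 1.36 (± 0.132). In DBA mice it changed by 0.44 (adjusted p = 0.0131), with signals of 2135.1, 2454.5 and 2334.4 with pristane, against 1359.4, 2065.5 and 1728.3 without. These groups did not overlap, but the gap between them was small, and the call was lost without DBA control replicate 1 (0.28, adjusted p = 0.131), without DBA pristane replicate 2 (0.39, adjusted p = 0.0558) and with each array centred on its median (0.39, adjusted p = 0.0725). Irf8, a lineage factor of monocytes and dendritic cells, rose in all 3 kinds of mice. Its signal was 1141.6, 1033.5 and 852.8 on DBA pristane arrays, against 293.9, 402.7 and 283.8 on DBA controls. Irf8 rose by 1.91 in BALB/c mice, 2.35 in F1 mice and 1.56 in DBA mice (± 0.165), and in each strain all pristane arrays were above all controls.

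RIG-I and MDA5 recognise different forms of viral RNA, and both of their genes rose in BALB/c and F1 mice at day 3. Ddx58, which encodes RIG-I, had signals of 3383.4, 2749 and 4297.2 on BALB/c pristane arrays, against 1081.9, 1131.8 and 1095.8 on controls. On F1 arrays it had 5702.9, 4595.1 and 4985.1 with pristane, against 1122.1, 1005.9 and 1088.3 without. On DBA arrays it had 1287.8, 1271.8 and 1133 with pristane, against 713.5, 870.7 and 874 without. Pristane arrays did not overlap the controls of their strain, and Ddx58 rose by 1.61, 2.22 and 0.58 in BALB/c, F1 and DBA mice (± 0.163). The DBA call, at an adjusted p of 0.00839, was lost without DBA control replicate 1 (0.48, adjusted p = 0.0532). Ifih1, which encodes MDA5, had DBA signals of 1164, 1032.5 and 1056.4 with pristane, against 908.3, 1229.8 and 1121.6 without, so the groups overlapped fully. It rose by 1.20 in BALB/c and by 2.17 in F1 mice (± 0.235), and in DBA mice the change was 0.01 (adjusted p = 0.989, 95% interval -0.48 to 0.49).

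Dhx58, which encodes LGP2, was dim without pristane and bright with it in BALB/c and F1 mice. Its signals were 1018.3, 751.3 and 1305.1 on BALB/c pristane arrays, against 113.5, 150.8 and 105 on controls. On F1 arrays they were 2922.7, 2270.2 and 3110.8 with pristane, against 93.9, 115.8 and 109 without. On DBA arrays they were 198.2, 193.4 and 137.8 with pristane, against 129.2, 109.5 and 161.2 without. The DBA groups overlapped and the others did not. Dhx58 rose by 2.80 (6.99-fold) in BALB/c and by 4.40 (21.2-fold) in F1 mice, and the DBA change was 0.35 (adjusted p = 0.46), each ± 0.32.

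Zbp1, the sensor of left-handed nucleic acids that can trigger cell death through RIPK3, was the only sensor of the 4 with a change above 1 on the log2 scale in DBA mice at day 3. Its DBA signals were 471.6, 495.7 and 388.7 with pristane, against 100.9, 142.4 and 82.5 without. BALB/c signals were 1875, 1325.8 and 2551.4 with pristane, against 148.7, 137.4 and 195 without. On F1 arrays they were 4580.1, 4480.7 and 4271 with pristane, against 142.1, 167 and 294.4 without. Zbp1 rose by 3.35 (10.2-fold), 4.36 (20.6-fold) and 1.85 (3.62-fold) in BALB/c, F1 and DBA mice (± 0.273). Pristane arrays did not overlap the controls of their strain, and the BALB/c rise was the largest of the 9 genes in that strain at that time.

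Counted together, 9 of 9 genes rose in BALB/c mice at day 3, where 18.3% of all tested genes rose. The count was also 9 of 9 in F1 mice, where 18.6% of genes rose. In DBA mice 6 of 9 rose, where 16.4% of genes did, and Irf7, Ifih1 and Dhx58 were the exceptions. Of all tested genes 17.2%, 18% and 13.4% fell in BALB/c, F1 and DBA mice at day 3, and 22.2% and 25% in BALB/c and DBA mice at day 18. The median change of the 9 genes was 1.61, 2.35 and 0.58 in BALB/c, F1 and DBA mice, and the median over all genes was -0.01, -0.04 and 0.00. All 9 of the F1 rises were also called when the mean of BALB/c and DBA controls stood in for the F1 controls, and when Xist signal was a term of the fit. Leaving out each array in turn left 4 to 6 calls in DBA mice at day 3, lowest without DBA control replicate 1, and 9 in the other responses.

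**Figure D2:**
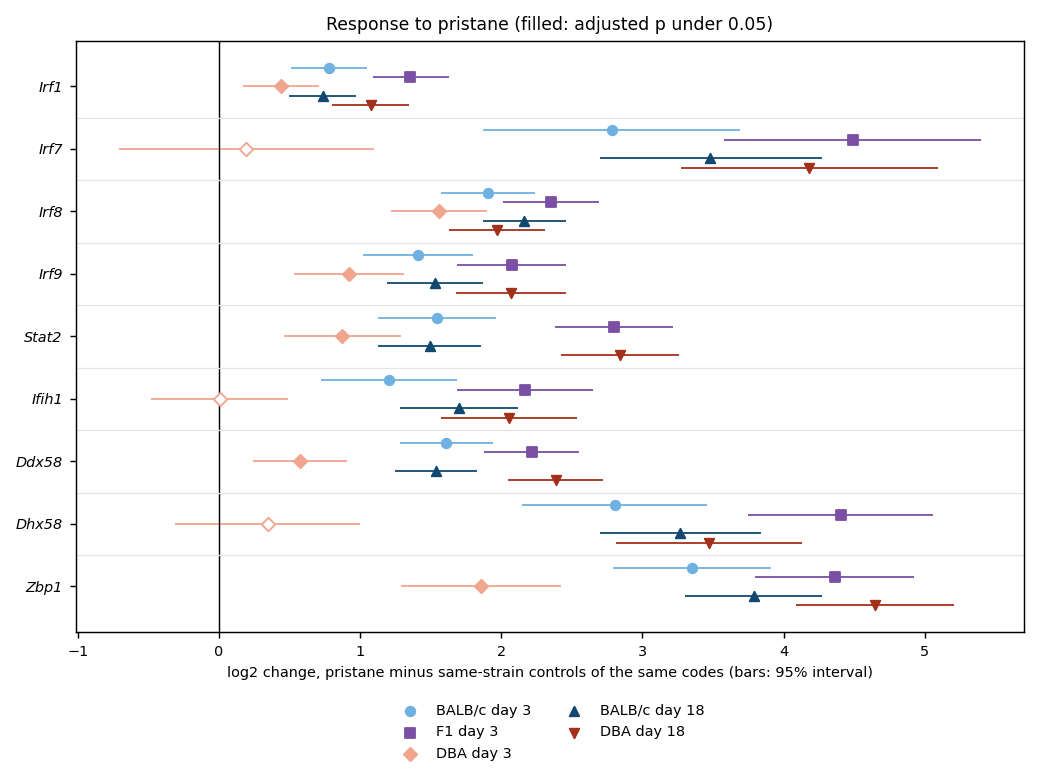
The log2 change of each of the 9 genes in the 5 responses, with 95% intervals from the fit and filled symbols where the adjusted p was under 0.05. The DBA day 3 symbols lie furthest left for all 9 genes, and those of Irf7, Ifih1 and Dhx58 are open.

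At day 18 all 9 genes were higher with pristane than without in both strains, and in every comparison the pristane and control arrays did not overlap. The share of all genes without such overlap was not counted. Irf7 had signals of 8518.3, 6282.5, 5159.6 and 7982.9 on BALB/c pristane arrays, against 471.2, 198.6, 1582 and 783.6 on controls. In DBA mice Irf7 had 7583.1, 4960.1 and 9271.1 with pristane, against 432.9, 316.4 and 352.7 without. The BALB/c controls of this code run spread more widely than the DBA controls, with replicate 2 lowest and replicate 3 highest. Irf7 rose by 3.48 ± 0.382 (11.2-fold) in BALB/c and 4.18 ± 0.441 (18.1-fold) in DBA mice. Dhx58 had 2183.2, 1448.2, 993.4 and 1607.2 on BALB/c pristane arrays, against 136.8, 46.9, 235.3 and 182.4 on controls. In DBA mice Dhx58 had 2102.5, 1494.5 and 2314.3 with pristane, against 202.6, 133.9 and 128.4 without. Dhx58 rose by 3.27 ± 0.277 in BALB/c and 3.47 ± 0.32 in DBA mice.

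Zbp1 had the largest day 18 rise of the 9 genes in each strain, 3.79 ± 0.236 (13.8-fold) in BALB/c and 4.65 ± 0.273 (25.1-fold) in DBA mice. Its DBA signals were 3708.5, 3456.4 and 4853.7 with pristane, against 158.4, 116 and 130.2 without. Stat2 had 1162.7, 1064.4, 786.4 and 982.1 on BALB/c pristane arrays, against 348.2, 249.3, 452.7 and 317.4 on controls. In DBA mice Stat2 had 1456.6, 1194.7 and 1617 with pristane, against 203.2, 180.5 and 147.6 without. DBA mice thus had the higher Stat2 signal with pristane and the lower one without it. The BALB/c and DBA arrays of day 18 had codes of different runs, so strain and code run cannot be told apart in these levels. Stat2 rose by 1.5 ± 0.176 in BALB/c and 2.84 ± 0.203 in DBA mice. The other rises in BALB/c and DBA mice were 0.74 and 1.07 for Irf1, 2.16 and 1.97 for Irf8, 1.53 and 2.07 for Irf9, 1.70 and 2.06 for Ifih1, and 1.54 and 2.39 for Ddx58. The 9 of 9 calls stand beside 21.7% of all genes higher in BALB/c and 22.4% higher in DBA mice, and the medians of the 9 genes were 1.70 and 2.39. Without the 6 BALB/c arrays high in acinar markers, which leaves 1 pristane and 1 control array assumed to vary like the other groups, all 9 genes were called in BALB/c mice, with changes of 0.75 (Irf1) to 4.53 (Zbp1).

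The differences between responses were then tested directly, 6 in all. The F1 response exceeded the DBA response at day 3 for 8 of the 9 genes, where 1.68% of all genes did. The excess was 4.30 (adjusted p = 0.000104) for Irf7 and 4.06 (adjusted p = 5e-06) for Dhx58. It was 2.51 for Zbp1, 2.16 for Ifih1, 1.92 for Stat2, 1.64 for Ddx58, 1.15 for Irf9 and 0.92 for Irf1. For Irf8 it was 0.79 (adjusted p = 0.0845, 95% interval 0.31 to 1.27), and it was called when parental controls replaced the F1 controls (0.98, adjusted p = 0.00112) and with the Xist term (1.00, adjusted p = 0.0237). The Irf9 call was lost without F1 control replicate 2 (1.07, adjusted p = 0.0574), without DBA pristane replicate 3 (0.99, adjusted p = 0.0733) and when DBA control replicate 2 was left out (0.98, adjusted p = 0.0718). With the least certain probe set of each gene 6 of the 9 were called, Dhx58 (0.66, adjusted p = 0.54) and Ddx58 (1.16, adjusted p = 0.0831) no longer.

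The BALB/c response exceeded the DBA response at day 3 for 2 of the 9 genes, Dhx58 and Ddx58, where 0.376% of all genes did. The excess was 2.46 (adjusted p = 0.0113, 95% interval 1.53 to 3.39) for Dhx58 and 1.03 (adjusted p = 0.0318, interval 0.56 to 1.51) for Ddx58. The Ddx58 call was lost when any of 10 arrays was left out, with values of 0.87 to 1.07, with median centring (1.04, adjusted p = 0.143) and with the mean over probe sets (0.90, adjusted p = 0.097). With the least certain probe sets Dhx58 (0.11, adjusted p = 0.968) and Ddx58 (0.55, adjusted p = 0.618) both lost their call. Irf7 had the largest excess of the 9 genes, 2.59, and the widest interval, 1.31 to 3.87 (adjusted p = 0.054). It was called under the stricter brightness filter (2.59, adjusted p = 0.045) and without BALB/c pristane replicate 2 (3.02, adjusted p = 0.0218), as was Zbp1 (1.74, adjusted p = 0.041, against 1.5, adjusted p = 0.0743, with all arrays). Ifih1 differed by 1.20 (adjusted p = 0.114) and Stat2 by 0.67 (adjusted p = 0.429). Irf9, Irf1 and Irf8 differed by 0.49, 0.34 and 0.34, with adjusted p of 0.577 or more and intervals that reached from below 0 to 1.04, 0.73 and 0.82. Zbp1 was also called with the mean over its probe sets (2.06, adjusted p = 0.0239). The median excess was 1.03, beside -0.01 over all genes. When only the 4 groups concerned were fitted, 5 of the genes were called, Irf7, Ifih1 and Zbp1 in addition.

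F1 and BALB/c responses at day 3 differed for 0 of the 9 genes by limma and by an ordinary linear model, where 0.223% of all genes differed in either direction by limma. At an unadjusted p under 0.05, 8 of the 9 differed, as did 1143 of all 13016 genes. The F1 change was the higher of the pair for all 9, by 0.45 (Irf8) to 1.71 (Irf7). Stat2 came nearest to a call, at 1.26 (adjusted p = 0.0579, interval 0.67 to 1.85), and was called without BALB/c pristane replicate 3, BALB/c control replicate 2 or F1 pristane replicate 2. With parental controls in place of the F1 controls 6 of the genes were called. With arrays weighted by their quality 8 were called, Irf8 being the exception. The share of all genes called with parental controls or with array weights was not counted.

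In DBA mice the response at day 18 exceeded that at day 3 for 7 of the 9 genes, where 2.47% of all genes did. The excess was 3.99 for Irf7, 3.13 for Dhx58, 2.80 for Zbp1, 2.05 for Ifih1, 1.97 for Stat2, 1.81 for Ddx58 and 1.15 for Irf9. Irf1 differed by 0.64 (adjusted p = 0.0508) and Irf8 by 0.41 (adjusted p = 0.38). The Irf9 call was lost without DBA pristane day 3 replicate 3 (0.99, adjusted p = 0.0597) and when DBA control day 3 replicate 2 was left out (0.98, adjusted p = 0.0519). With the least certain probe set of each gene 5 of the 9 were called, Dhx58 (0.12, adjusted p = 0.931) and Ddx58 (1.07, adjusted p = 0.0761) no longer. Irf1 was called without DBA control replicate 1 of the day 18 codes (0.70, adjusted p = 0.0487) or of the day 3 codes (0.79, adjusted p = 0.0126). In BALB/c mice 0 of the 9 genes differed between the days by limma, by an ordinary linear model and at an unadjusted p under 0.05, where 0.361% of all genes differed in either direction by limma. At an unadjusted p under 0.05, 1511 of all 13016 genes did. The BALB/c differences ran from -0.07 (Ddx58) to 0.70 (Irf7), and the interval of Irf7 was -0.50 to 1.90. The arrays of day 3 and day 18 carry title codes of different runs, so day and code run cannot be told apart except through each run's own controls.

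At day 18 Stat2 responded less in BALB/c than in DBA mice. Strain and code run coincide at day 18, so they cannot be told apart except through each run's own controls. The BALB/c response was smaller than the DBA response by 1.34 on the log2 scale (adjusted p = 0.0149, interval -1.90 to -0.79), which made 1 of the 9 genes, where 0.538% of all genes were lower. Ddx58 followed at -0.85 (adjusted p = 0.0518), and was called without BALB/c pristane replicate 1, BALB/c control replicate 2 or DBA pristane replicate 1. The Stat2 call was lost without DBA pristane replicate 3 (-1.25, adjusted p = 0.0586), without the arrays high in acinar markers (-1.17, adjusted p = 0.217), with median centring (-1.28, adjusted p = 0.0647), when only the 4 groups concerned were fitted (-1.34, adjusted p = 0.153) and with its other probe set (-0.90, adjusted p = 0.19). Of the 9 genes only Irf8 had a BALB/c response above the DBA response, by 0.19 (adjusted p = 0.666).

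**Figure D3:**
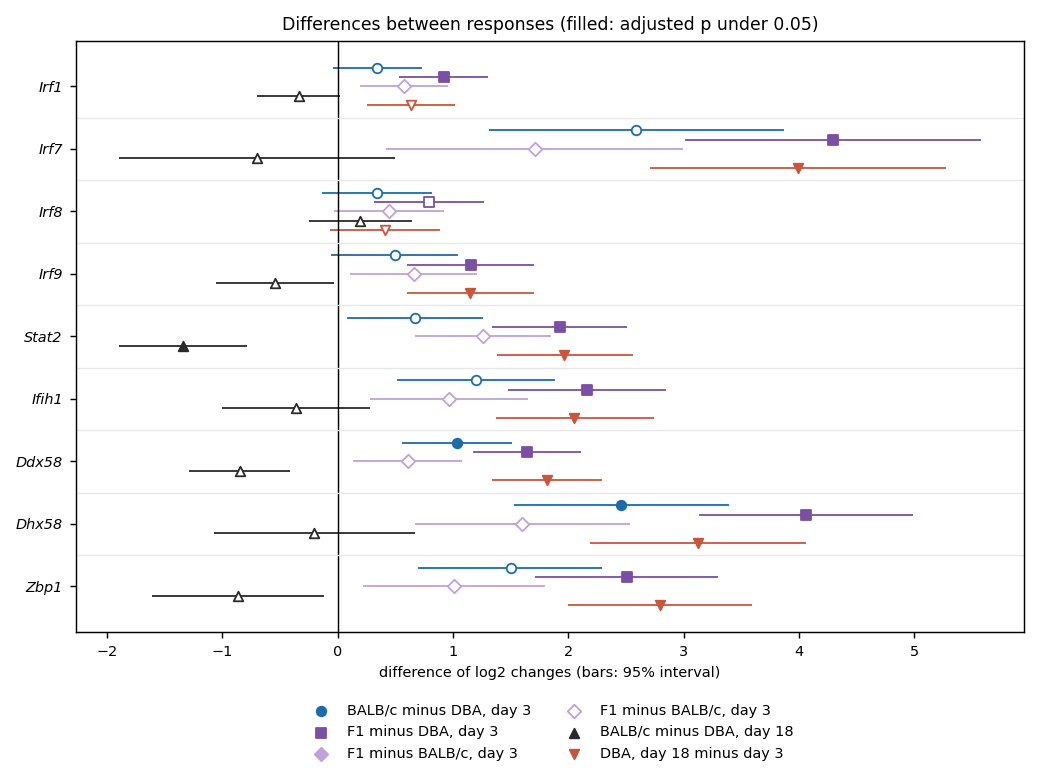
Differences between responses in log2 units for each of the 9 genes, with 95% intervals and filled symbols where the adjusted p was under 0.05. F1 minus DBA at day 3 and DBA day 18 minus day 3 lie to the right of 0 for every gene, and only Stat2 is filled to the left of 0.

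Levels were set side by side within each gene, without subtracting controls. Groups of different days, and of different strains at day 18, also differ in code run. In ranks across runs, day or strain cannot be told apart from the code run. F1 pristane arrays had the highest mean signal of the 10 groups for 8 of the 9 genes, and BALB/c pristane arrays of day 18 for Irf8. DBA pristane arrays of day 18 followed for Irf1, Irf7, Irf9, Stat2, Ifih1, Dhx58 and Zbp1. The F1 and the DBA day 18 arrays overlapped for Stat2, Dhx58 and Zbp1, and did not for Irf1, Irf7, Irf9 and Ifih1. BALB/c pristane arrays of day 3 and day 18 were neighbours and overlapped for Irf1, Irf9, Stat2, Ifih1, Dhx58 and Zbp1. DBA pristane arrays of day 3 ranked below all other pristane groups for every gene, and for Irf7, Stat2 and Ifih1 their mean was below that of at least 1 control group.

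Between untreated DBA and BALB/c mice of the day 3 codes, 0 of the 9 genes differed by limma or by an ordinary linear model, where 7.66% of all genes differed in either direction by limma. At an unadjusted p under 0.05, 3 were lower in DBA mice, where 2460 of all 13016 genes differed in either direction. Irf9, Stat2, Ifih1 and Ddx58 were lower on every DBA control array than on every BALB/c control array, by 0.34 (Ifih1) to 0.50 (Stat2) on the log2 scale. How many of all genes separate in this way was not counted. The unadjusted p of Irf9, Stat2 and Ddx58 were 0.028, 0.0207 and 0.0149, and their adjusted p 0.125 or more. With pristane, 7 of the 9 genes were lower in DBA than in BALB/c mice at day 3, where 4.43% of all genes were lower. The differences of those 7 were -2.43 for Irf7, -2.36 for Dhx58, -1.98 for Zbp1, -1.53 for Ifih1, -1.46 for Ddx58, -1.17 for Stat2 and -0.93 for Irf9. For Irf8 the difference was -0.47 (adjusted p = 0.076) with no overlap, and for Irf1 it was -0.30 (adjusted p = 0.182) with overlapping arrays.

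The mean of the 9 genes on the log2 scale ran from 9.32 to 9.57 on DBA pristane arrays of day 3, against 8.57 to 8.88 on their controls. On BALB/c arrays of day 3 it was 10.51 to 11.26 with pristane, against 8.85 to 9.05 without, and on F1 arrays 11.79 to 11.97 with pristane, against 8.92 to 9.07 without. At day 18 it was 10.97 to 11.56 with pristane in BALB/c mice, against 8.44 to 9.60 without, and 11.29 to 11.70 with pristane in DBA mice, against 8.67 to 8.92 without. The lowest and the highest BALB/c control of the day 18 codes were replicates 2 and 3, with acinar marker sums of 829000 and 11400. Replicates 1 and 4, with sums of 897 and 15800, lay between them at 9.09 and 9.21.

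The genes moved together across the arrays, as a description over 32 arrays that share strain and treatment. Pearson's r of log2 signal between pairs of the 9 genes ran from 0.859 (Irf8 with Ifih1) to 0.979 (Irf9 with Zbp1). Once each array was taken as its deviation from its group mean, r ran from 0.362 (Irf8 with Stat2) to 0.874 (Ifih1 with Ddx58). Outside the 9 genes, the most similar patterns to Irf7 were those of Gm20559 (0.98), Ifi209 (0.977) and Usp18 (0.977). Those nearest to Dhx58 were Ifi209 (0.989), Ms4a4c (0.986) and Gm20559 (0.985), and those nearest to Ifih1 were Samd9l (0.99), Ifit1 (0.979) and Usp18 (0.973). Ddx58 was most like Irgm1 (0.983), Ifit1 (0.982) and Parp9 (0.977), and Zbp1 most like Trim30a (0.987), Rnf213 (0.985) and Fcgr1 (0.984). Irf9 had Trim30a (0.985), Ddx60 (0.982) and Ms4a6d (0.97) nearest, Stat2 had Uba7 (0.98), Lgals9 (0.977) and Ifi47 (0.973), and Irf1 had Uba7 (0.974), Ifi47 (0.973) and Tap1 (0.973). Irf8 shared none of these neighbours, its nearest being Cd48 (0.988), Metrnl (0.987) and Capg (0.985).

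Further probe sets were present for 5 of the 9 genes. The dimmer Irf8 probe set gave smaller day 3 changes in BALB/c and DBA mice, 0.75 and 0.84 beside 1.91 and 1.56, and 2.22 in F1 mice, all called. The dimmer Zbp1 probe set gave changes of 4.33 in BALB/c mice, 5.73 in F1 mice and 1.71 in DBA mice at day 3. A further Dhx58 probe set gave 1.87, 3.15 and 0.15. The dimmest Dhx58 probe set never exceeded a signal of 135.7 and was not called in BALB/c mice at either day (0.37 and -0.11) or in DBA mice at day 18 (0.37). The dimmer Stat2 probe set gave 0.45 in DBA mice at day 3 and the dimmest Ddx58 probe set 0.33, neither of them called.

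Upstream of the 9 genes stand the interferon receptors and their JAK-STAT chain, of which 15 listed genes were tested. In BALB/c, F1 and DBA mice at day 3, 12, 10 and 10 of the 15 rose, and 11 and 12 rose in BALB/c and DBA mice at day 18. Of all tested genes 18.3%, 18.6% and 16.4% rose at day 3, and 21.7% and 22.4% at day 18, in the same order. By limma 0 of the 15 were called lower in the 5 responses, where 13.4% to 25% of all genes fell. At an unadjusted p under 0.05, 1 was lower, in F1 mice. Usp18, which encodes a protease that damps interferon receptor signalling, followed the pattern of Irf7, with changes of 2.91 in BALB/c mice, 4.19 in F1 mice and -0.04 (adjusted p = 0.946) in DBA mice at day 3, and of 3.41 and 4.10 in BALB/c and DBA mice at day 18. The BALB/c response of Usp18 exceeded the DBA response at day 3 by 2.95 (adjusted p = 0.000459). Socs3, a feedback inhibitor mainly of cytokines that act through STAT3, rose in BALB/c, F1 and DBA mice at day 3 by 2.95, 2.71 and 2.73, and the BALB/c excess over DBA was 0.22 (adjusted p = 0.953). Socs1, the feedback inhibitor of interferon signalling, rose by 0.97, 1.77 and 1.07. Ptpn6, a phosphatase that dampens JAK signalling, rose by 0.96, 1.17 and 0.90.

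Of the other interferon regulatory factors and their binding partners 7 were tested. In the 5 responses 1, 1, 3, 4 and 3 of the 7 rose (BALB/c, F1 and DBA at day 3, then BALB/c and DBA at day 18), and 1, 0, 1, 1 and 0 fell. In the same order 18.3%, 18.6%, 16.4%, 21.7% and 22.4% of all genes rose, and 17.2%, 18%, 13.4%, 22.2% and 25% fell. Irf5, an activator of inflammatory cytokine genes in myeloid cells, rose by 1.64, 2.32 and 1.52 at day 3 and by 1.68 and 2.11 at day 18. Irf3, the constitutive factor that sensors activate by phosphorylation, was not called in any response, with changes between -0.21 and 0.33. Irf4, a factor of lymphocytes and plasma cells, fell by 1.51 in DBA mice at day 3 (adjusted p = 0.00576), and its BALB/c and F1 changes were -0.49 and -0.40, not called.

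Of the other nucleic acid sensors and RNA-binding effectors, a list that also held the inflammasome sensor Nlrp3, 13 were tested. In the same order of responses 8, 10, 7, 10 and 11 rose, beside 18.3%, 18.6%, 16.4%, 21.7% and 22.4% of all genes. By limma 0 were lower, where 13.4% to 25% of all genes were, and 0 were lower at an unadjusted p under 0.05. Ddx60, an interferon-induced helicase, rose by 2.23, 3.11 and 0.89 at day 3 and by 2.91 and 3.24 at day 18. Its F1 response exceeded the DBA response by 2.22 (adjusted p = 0.000459). Eif2ak2, the RNA-activated kinase PKR, rose by 1.17, 1.68 and 0.74 at day 3. Cgas, the sensor of cytosolic DNA, rose by 1.57, 1.54 and 0.71 at day 3 and by 1.80 and 1.96 at day 18. Tlr7, an endosomal receptor for RNA, rose by 0.93, 1.91 and 1.05 at day 3 and by 2.15 and 2.78 at day 18. Nlrp3, an inflammasome sensor, rose in DBA mice at day 3 by 2.17, beside 1.63 in BALB/c and 1.96 in F1 mice, and its BALB/c minus DBA difference was -0.54 (adjusted p = 0.699).

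Of the adaptors and kinases that act after the sensors 14 were tested, of which 7, 9, 5, 8 and 8 rose and 0, 1, 1, 3 and 2 fell. Beside these counts, 18.3%, 18.6%, 16.4%, 21.7% and 22.4% of all genes rose, and 17.2%, 18%, 13.4%, 22.2% and 25% fell. Mavs, the adaptor of RIG-I and MDA5, did not rise in any response. It fell by 0.55 in BALB/c (adjusted p = 0.00149) and by 0.73 in DBA mice (adjusted p = 0.00031) at day 18, and its day 3 changes were between -0.28 and -0.15, not called. Ikbke, a kinase that phosphorylates IRF3 and IRF7, rose by 2.53, 2.75 and 2.29 at day 3 and by 2.64 and 3.50 at day 18. Sting1, the adaptor after cGAS, rose by 2.26, 2.21 and 1.70 at day 3. Trim25, a ubiquitin ligase linked to RIG-I activation, rose by 1.10 in BALB/c and 1.12 in F1 mice and had 0.28 (adjusted p = 0.113) in DBA mice, and its BALB/c excess over DBA was called (0.82, adjusted p = 0.0364). Ripk3 and Mlkl carry the cell death signal of ZBP1. Ripk3 rose by 1.93, 1.92 and 1.57 at day 3, and Mlkl by 1.36 and 2.29 in BALB/c and F1 mice with 0.51 (adjusted p = 0.0954) in DBA mice.

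**Figure D4:**
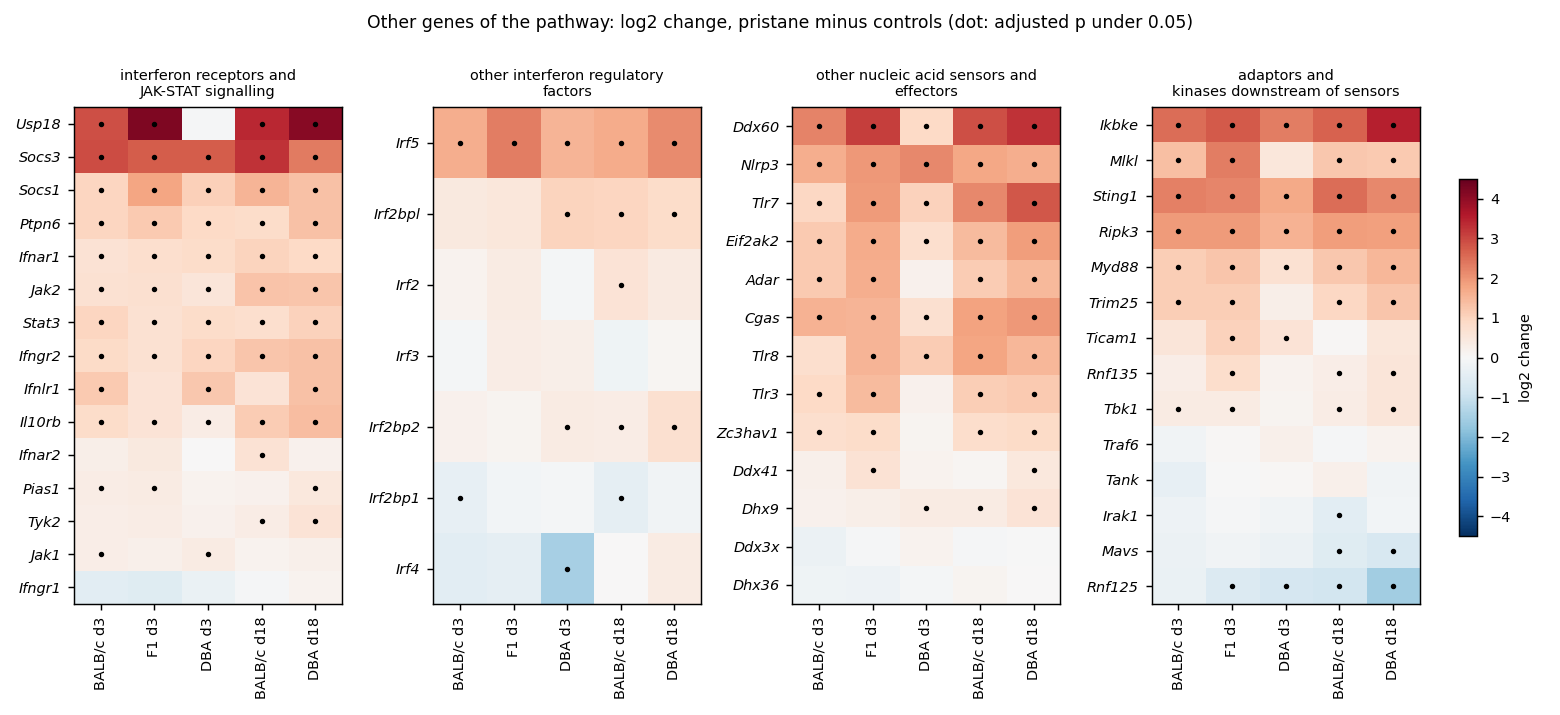
Heat map of the log2 change of other pathway genes in the 5 responses (columns), in 4 gene lists (panels), with a dot where the adjusted p was under 0.05. The DBA day 3 column is pale for Usp18 and Trim25, while Socs3, Irf5, Ikbke and Sting1 are red in every column.

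The interferon genes themselves were at the lower end of the signal range. Of 19 listed, 10 were on the array under a single symbol, and 1 of them, Ifnz, passed the brightness filter. Ifnb1 reached at most 111.8, on a BALB/c control array of the day 18 codes, and Ifna5 at most 147.4, on an array of the same group. Ifna1, Ifna2, Ifna4, Ifna9, Ifna11 and Ifnab never exceeded 103.7, nor did Ifng, whose highest signal was 41.3 on an F1 pristane array. Ifnz, a member of the interferon-zeta family, lay between 75 and 267.3 and rose by 0.68 in BALB/c (adjusted p = 0.0222) and 0.63 in F1 mice at day 3 (adjusted p = 0.0334), and its DBA change was -0.05. The other 9 interferon genes did not pass the brightness filter, and no test of them was made.

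Markers of some blood cell types were higher on pristane arrays, as the 9 genes were, and fewer cells of a type cannot be told apart from less RNA per cell in bulk tissue. Monocyte and macrophage markers (8 of 10 listed on the array) summed to 36300 to 42000 on BALB/c pristane arrays of day 3, against 11600 to 14400 on controls. In F1 mice they summed to 38600 to 42900 with pristane, against 12900 to 18300 without. In DBA mice they summed to 29400 to 43500 with pristane, against 11200 to 12300 without. These markers rose in DBA mice at day 3, 8 of 8, beside 7 of 8 in BALB/c and 7 of 8 in F1 mice. Of all genes 16.4%, 18.3% and 18.6% rose in the DBA, BALB/c and F1 responses of day 3. The BALB/c excess over DBA at day 3 was called for 0 of the 8 by limma, where 0.376% of all genes had a called excess. At so low a share, 0 of 8 does not show that the strains were alike in these markers. At an unadjusted p under 0.05, 1 was higher and 1 lower, where 1288 of all 13016 genes differed in either direction. The median difference was -0.07, beside 1.03 for the 9 genes. Fcgr1, the high-affinity antibody receptor on that list, is also one of the genes nearest to Zbp1 in pattern, and rose by 3.59, 4.99 and 2.08 in BALB/c, F1 and DBA mice at day 3. At day 18 the sums were 37800 to 51400 with pristane in BALB/c mice, against 9690 to 13500 without, and 44500 to 54600 in DBA mice, against 9840 to 14300 without.

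Plasmacytoid dendritic cells are known as strong producers of type I interferon, and 8 of their 9 listed markers were on the array. Their sums at day 3 were 3420 to 4250 with pristane in BALB/c mice, against 2860 to 3170 without, and 3740 to 4350 in F1 mice, against 2950 to 3420 without. In DBA mice they were 3040 to 3380 with pristane, against 2700 to 2850 without, so DBA pristane arrays were below all BALB/c pristane arrays. Of these 8 markers 4, 5 and 3 rose in BALB/c, F1 and DBA mice, where 18.3%, 18.6% and 16.4% of all genes rose. The BALB/c excess over DBA was called for 0, by limma and at an unadjusted p under 0.05, with a median of 0.08. Of all genes 0.376% had a called excess by limma, so 0 of 8 does not show that the strains were alike. Siglech, a defining surface receptor of the type, rose by 0.99 in BALB/c mice, 1.19 in F1 mice and 0.99 in DBA mice. It is 1 of the 8 markers, and not all of the 8 rose in any of these mice. T and NK cell markers summed to 1110 to 1750 in BALB/c pristane mice of day 3, against 536 to 769 without. In F1 mice they summed to 1980 to 3270 with pristane, against 566 to 820 without, and in DBA mice to 737 to 1170, against 509 to 805 without. The DBA ranges overlapped and the others did not. Neutrophil markers summed to 20900 to 37300 in BALB/c, 9210 to 27900 in F1 and 11600 to 20400 in DBA pristane mice of day 3, against at most 824, 1380 and 763 on their controls. Adipocyte markers summed to 54300 to 69800 in BALB/c pristane mice of day 3, against 92100 to 126000 without, and to 85700 to 92400 in DBA pristane mice, against 86800 to 110000 without. Of 7 adipocyte markers 5 fell in BALB/c mice at day 3 and 4 in F1 mice, beside 17.2% and 18% of all genes. In DBA mice 0 fell by limma, where 13.4% of all genes did, and 1 at an unadjusted p under 0.05. Of 6 tested B cell markers 0, 1, 0, 2 and 0 rose in the 5 responses and 1 fell, in BALB/c mice at day 3, where the sums were 2460 to 4030 with pristane, against 2510 to 3540 without. Of 6 tested markers of conventional dendritic cells 3, 1, 3, 4 and 4 rose, and 2 fell in F1 mice, where the median change was 0.01. Beside the B cell and dendritic cell counts, 18.3%, 18.6%, 16.4%, 21.7% and 22.4% of all genes rose in the 5 responses. In BALB/c and F1 mice at day 3, 17.2% and 18% of all genes fell. The part of these cell types in the responses of the 9 genes was not tested.

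**Figure D5:**
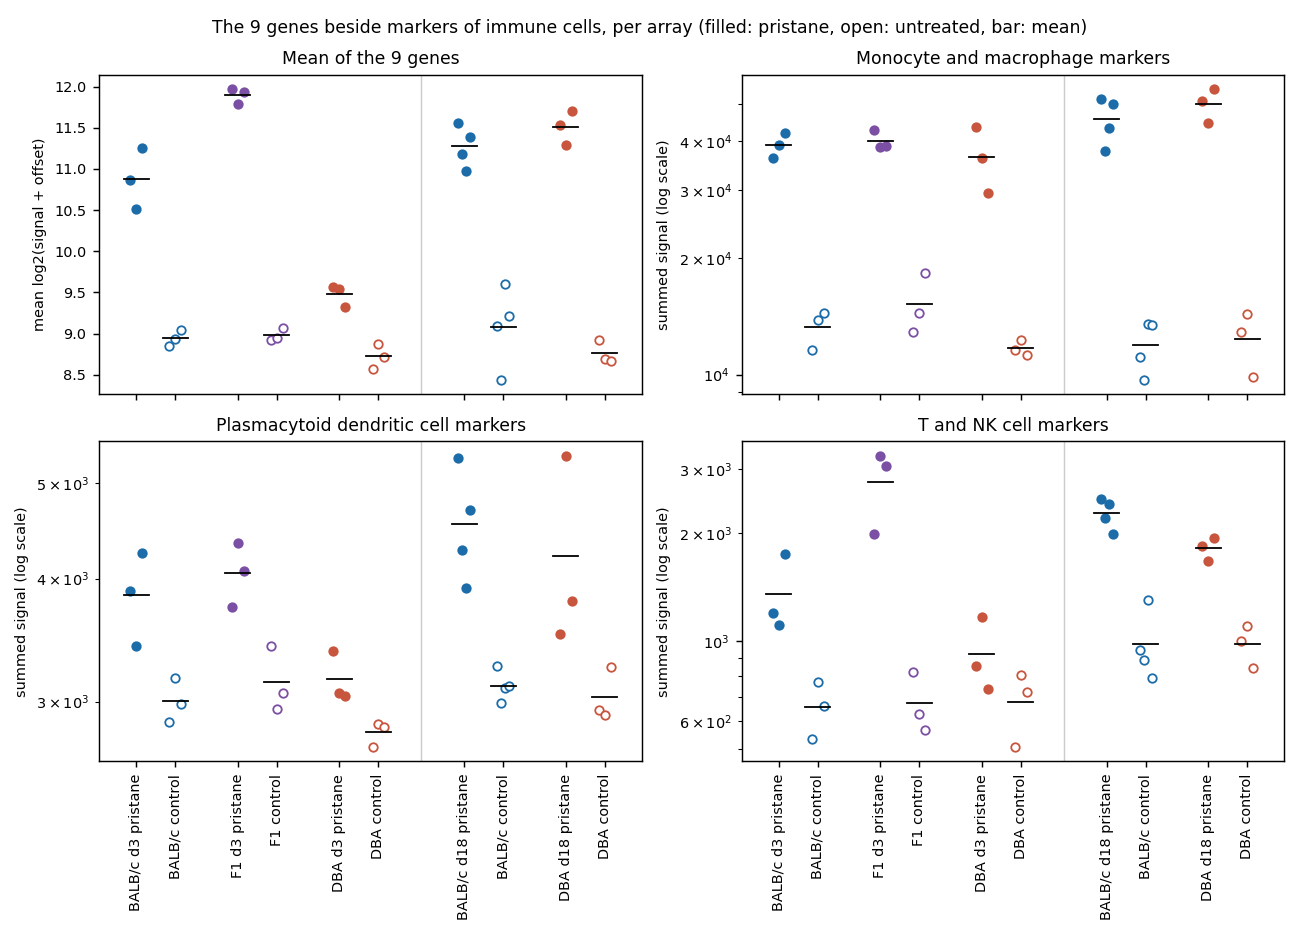
The mean log2 signal of the 9 genes and the summed signals (log scale) of monocyte and macrophage, plasmacytoid dendritic cell, and T and NK cell markers on each of 32 arrays, with pristane arrays filled, untreated arrays open and a bar at each mean. The monocyte and macrophage sums of the DBA pristane arrays of day 3, 29400 to 43500, overlap those of the BALB/c pristane arrays, while the means of the 9 genes, 9.32 to 9.57 on these DBA arrays and 10.51 to 11.26 on the BALB/c arrays, do not.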

How the data were processed

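The values used were array intensities in the table the authors deposited, which per the submitters' processing notes came from the GCOS software and the MAS5 algorithm. The 2% trimmed mean of each of the 32 arrays was 500, so the arrays had been scaled to a common level, and the number of arrays limits the precision. Of 45101 probe sets 34958 carried 1 gene symbol in the platform annotation, 932 several and 9211 none, and only the first kind was named. From these the intensities were logged as log2(signal + 24.9), the offset being the 25th percentile of all values. Probe sets above 103.7, the median of all values, on at least 3 arrays were kept, and the brightest per gene stood for it. One linear model with 10 group means was fitted with limma 3.58.1 in R 4.3.3 (intensity trend, two-sided, Benjamini-Hochberg over 13016 genes in each of 13 comparisons). Groups followed the strain, treatment and day in the labels, and the run of title codes paired each treated group with its controls. The scripts were tested on simulated data with known changes.

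The 9 genes and the gene lists were chosen with earlier results of these data known. The genes named from a list were those with the largest called changes (up to 4 in F1 mice at day 3, up to 3 in the BALB/c minus DBA difference at day 3 and up to 2 in each other response), together with Irf3, Mavs, Tlr7, Cgas, Sting1 and the interferon genes where measured. The nearest patterns were the 3 highest Pearson correlations over 32 arrays for each gene. Alternatives covered the offset, the brightness filter, quantile and median scaling, the variance model, array weights, other probe sets, separate fits, Xist as a term, parental controls for F1 and each array left out. Leaving out the BALB/c arrays high in acinar markers was chosen after seeing the data.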

Additional observations from a re-analysis of the deposited data

Results flagged for a closer look

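In the BALB/c controls of the day 18 codes, Ifih1 was lowest on replicate 2 (9.33 on the log2 scale, against 10.20 to 10.36). The gap to the nearest of the other 3 arrays was 0.841 of the group's range. Chance alone gives such a gap in about 1 of 20 checks. The check was made for each of the 9 genes in both BALB/c groups of 4 arrays, and only this gap was flagged. Among so many checks a gap of this size can arise by chance. Replicate 2 also had the highest sum of acinar markers, 829000.

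The response to pristane differed between strains at day 3, by a test of the difference itself, for Ddx58 (1.03) and Dhx58 (2.46) in BALB/c minus DBA mice. In F1 minus DBA mice it differed for Irf1 (0.92), Irf7 (4.30), Irf9 (1.15), Stat2 (1.92), Ifih1 (2.16), Ddx58 (1.64), Dhx58 (4.06) and Zbp1 (2.51), all on the log2 scale. Xist signal was high on the F1 pristane arrays and low on the F1 controls, and these 8 differences were also called when parental controls replaced the F1 controls.

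At day 18 the Stat2 response differed between BALB/c and DBA mice by -1.34. In DBA mice the response at day 18 differed from that at day 3 for Irf7 (3.99), Irf9 (1.15), Stat2 (1.97), Ifih1 (2.05), Ddx58 (1.81), Dhx58 (3.13) and Zbp1 (2.80).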

How the results depend on the processing

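Of 2565 values of single genes under the alternatives, 2440 kept their direction and their side of the threshold, 37 lost their call, 53 gained one and 35 changed sign. The 9 of 9 calls in BALB/c and F1 mice at day 3 and in both strains at day 18 held when any array was left out. No paired analysis was possible because replicate numbers follow the order of the samples and pair nothing. Depth is not given by arrays, so brightness over background sets the limit, as for Dhx58 and Zbp1, whose control signals were near the filter.

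The count of genes with a larger BALB/c than DBA response at day 3, 2 as reported, was 1 with median centring, 5 with array weights, 5 with a separate fit, 0 with the least certain probe set of each gene and 1 to 4 with an array left out. It was 3 under the stricter filter, Irf7 being gained, and 2 with the mean over probe sets, where Zbp1 stood in place of Ddx58. The day 18 count of that comparison, 1 as reported, was 2 with a floor at the 25th percentile, 2 with a stricter filter, 2 with quantile normalization, 0 with median centring, 7 with array weights, 0 with a separate fit, 0 with the least certain probe set, 0 without the arrays high in acinar markers and 0 to 2 with an array left out. The F1 minus BALB/c count, 0 as reported, was 8 with array weights, 1 with a separate fit, 6 with parental controls and 0 to 1 with an array left out. The count between untreated strains, 0 as reported, was 1 with array weights and 1 with a separate fit. The cause of these moves was not tested, and the share of all genes called under these alternatives was not counted.

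The changes of sign were all in values that were not called as reported, except Dhx58 in BALB/c mice at day 18, which was -0.107 with the least certain of its probe sets. In the DBA day 3 response Ifih1 was -0.013 with quantile normalization, -0.042 with median centring, -0.068 with array weights and -0.115 to 0.099 with an array left out. The cause of these changes was not tested. For BALB/c day 18 minus day 3, Stat2 was 0.04 with quantile normalization, 0.05 with median centring, 0.127 without acinar-high arrays and -0.224 to 0.105 with an array left out. Ddx58 in that comparison was 0.026 with median centring, 0.052 with the mean over probe sets, 0.195 without acinar-high arrays and -0.228 to 0.092 with an array left out. Irf1 there was 0.053 with median centring and -0.172 to 0.071 with an array left out, Irf9 was -0.026 with array weights and -0.087 to 0.254 with an array left out, and Zbp1 was -0.064 with its least certain probe set. Irf8 was -0.004 with array weights in BALB/c minus DBA at day 18 and -0.094 with its least certain probe set at day 3. Dhx58 in BALB/c minus DBA at day 18 was 0.3 without acinar-high arrays and -0.583 to 0.037 with an array left out. Between untreated strains Dhx58 was -0.071 with the mean over probe sets, -0.061 with the least certain one and -0.028 to 0.226 with an array left out, and Irf1 was -0.094 to 0.203 with an array left out.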
